A study of Mus musculus with 40 samples.

Results

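The nucleus accumbens of ovariectomized placebo cocaine mice was compared with that of intact female cocaine mice, by RNA sequencing of punched tissue. Both groups held 5 libraries, 1 per mouse, so the comparison uses 10 of the 40 libraries of the study. The members were chosen by the letters in the sample titles. Ovariectomized placebo cocaine mice (animals 125, 127, 133, 135 and 139) had lost the ovaries, carried a placebo in place of estradiol and received cocaine. Intact female cocaine mice (animals 70, 71, 72, 79 and 80) kept their ovaries and received cocaine. All were C57BL/6J mice handled for 3 days. The daily cocaine dose was 10 mg/kg on day 1 and again on day 7, and 20 mg/kg from day 2 to day 6, and tissue was taken after a withdrawal whose length is not given in the sources used here. Ovariectomized placebo saline, intact female saline and ovariectomized estradiol cocaine mice, 5 each, are set beside them where stated. The animals' age and stage of the estrous cycle are likewise not given.

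As a model, the comparison changes more than the ovary. Ovariectomized mice carry the numbers 121 to 140 and intact mice 61 to 80, so surgery, placebo and cohort cannot be told apart. Left and right punches of a mouse went into 1 tube, and in such bulk tissue fewer cells of a type and less RNA per cell cannot be told apart. P-values for genes set the difference between groups against the spread between libraries. In the model of all libraries of the study, groups outside the comparison also entered that spread. P-values for library measures rest on the compared libraries alone.

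The nucleus accumbens is the ventral part of the striatum, where dopamine fibres meet projection neurons that carry the D1 or the D2 receptor, and cocaine acts there by blocking dopamine uptake. Ovarian estradiol acts through the nuclear receptors encoded by Esr1 and Esr2, which bind DNA and recruit coregulators, and through the membrane receptor encoded by Gpr30. Estradiol also acts on blood vessels, whose inner wall is made of endothelial cells; in the brain these cells form the blood-brain barrier. The punches held striatal tissue as labelled: Ppp1r1b, which encodes the DARPP-32 phosphatase inhibitor of striatal projection neurons, lay at 760 to 1819 TPM in ovariectomized placebo cocaine libraries and at 768 to 1301 TPM in intact female cocaine libraries. TPM is the length-adjusted share of a library, in parts per 1000000.

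Sequences at the start sites are shown for the genes on which the results turn. Ribosomal protein genes stood higher as a group in the ovariectomized mice, and such genes are known for a pyrimidine tract at the transcription start. The 4 lines below are the ribosomal protein genes of largest log2 difference among those with the letters CTTTC, the first such run in capitals, within the 15 bases before and 15 bases after the annotated start, on the strand of the gene (RefSeq, GRCm38.p6).
Rpl13a, chr7:45128731-45128760, minus strand: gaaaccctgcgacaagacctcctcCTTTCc
Rpl38, chr11:114668565-114668594, plus strand: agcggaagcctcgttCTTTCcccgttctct
Rpl12, chr2:32961697-32961726, plus strand: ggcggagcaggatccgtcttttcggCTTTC
Rpl35, chr2:39005117-39005146, minus strand: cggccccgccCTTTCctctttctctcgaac
The full palindrome bound by estrogen receptors, GGTCANNNTGACC, was searched from 250 bases before to 50 bases after each start. Of 11110 tested genes with a RefSeq promoter entry, 1 held it (0.00900%). That gene was Pde10a, the cyclic nucleotide phosphodiesterase of striatal projection neurons. The palindrome, in capitals, begins 17 bases downstream of the annotated start.
Pde10a, chr17:8849994-8850023, plus strand: gggcggttGGTCAACCTGACCagagggagc

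No gene separated the ovariectomized placebo cocaine mice from the intact female cocaine mice in the model of all 40 libraries (limma with Benjamini-Hochberg adjustment, 0 of 15196 genes, 0%, at an adjusted p under 0.05; smallest adjusted p 0.696). Values leaned downward: at an unadjusted p under 0.05, 99 genes were higher (0.651%) and 756 lower (4.97%). The median gene differed by -0.24 on the log2 scale, with 3564 genes above 0 and 11627 below. Results for gene groups are therefore also given as a relative median: the log2 difference of the group's median member, less that of the median gene.

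The count depended on which libraries set the error. With only the 10 libraries of the comparison in the model, 96 genes were called higher (0.632%) and 1424 lower (9.37%). Weighting the 40 libraries by their fit to the model gave 912 higher and 5519 lower. The 4 libraries of lowest correlation were estradiol cocaine animals 126 and 134, placebo saline animal 137 and male cocaine animal 67, all outside the comparison. Without these 4 the count stayed at 0. Genes at an unadjusted p under 0.05 (limma) then numbered 4357, against 855 with them. The smallest adjusted p was 0.0883, against 0.696 with them. Subtracting each library's median in the model of 10 libraries turned the split around, to 217 higher (1.43%) and 13 lower (0.0855%). Either count was 0 without ovariectomized animal 127 or 133, and without intact animal 71 or 72. On the centred values, the 5 mice of one group lay wholly above the 5 of the other at 561 genes higher (3.69%) and 214 genes lower (1.41%) in the ovariectomized mice. "Called" below refers to the model of 10 libraries, and every gene named missed the threshold in the model of all 40. The SE and unadjusted p-values given for single genes are from the model of all 40. The SE printed beside a called gene is therefore not the one behind the call.

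The libraries themselves differed in composition. Ribosomal protein genes took 10.8% ± 1.93 of all TPM in ovariectomized placebo cocaine libraries (SD, n = 5, 8.23% to 13.1%) and 7.89% ± 0.584 in intact female cocaine libraries (SD, n = 5, 7.44% to 8.86%; exact permutation test, two-sided, p = 0.0159, adjusted 0.0370 over 7 measures). The level of the median gene, as log2(TPM + 0.5), was 4.13 ± 0.126 in ovariectomized placebo cocaine and 4.44 ± 0.0923 in intact female cocaine libraries, with no overlap (exact permutation p = 0.00794, the smallest possible, adjusted 0.0278). Genes above 0 numbered 16513 to 16873 in ovariectomized placebo cocaine and 15656 to 17738 in intact female cocaine libraries (exact permutation p = 0.873). One ovariectomized library, of animal 139, stood apart: ribosomal RNA precursor Rn45s made up 15.8% of it, against 0.782% to 2.56% of the other ovariectomized and 1.21% to 4.21% of the intact libraries, and its small nucleolar RNAs summed to 12009 TPM. Without this animal the model of all 40 libraries called 0 genes as before, and that of the 10 libraries 0, or 188 on centred values.

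**Figure D1:**
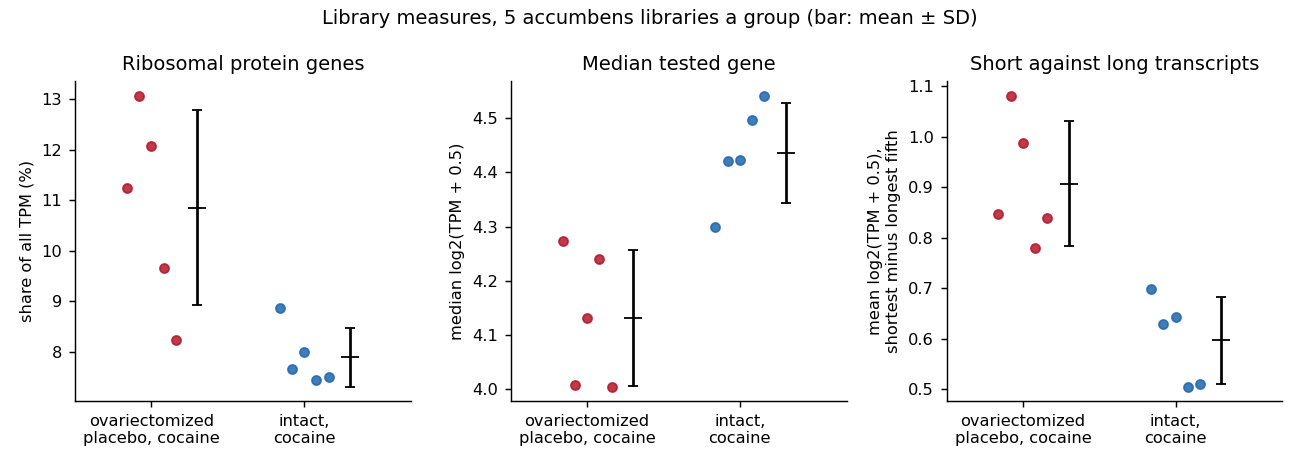
Share of TPM in ribosomal protein genes (%), median log2(TPM + 0.5) over tested genes, and the mean log2(TPM + 0.5) of the shortest minus the longest of 5 length bins. Each point is a library, ovariectomized placebo cocaine on the left and intact female cocaine on the right, with bars for mean ± SD; the groups overlap in the first measure alone.

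The endothelium gave the lowest relative median of all gene lists, -0.76. Of its 14 tested genes, 10 were lower at an unadjusted p under 0.05 and 7 were called lower, against 4.97% and 9.37% of all genes; 0 of the 14 were called on centred values. Ly6c1, a surface protein of brain endothelium (chr15:75044018-75048830, minus strand, mm10), had 60.1, 44.1, 42.7, 27.6 and 46.4 TPM in ovariectomized placebo cocaine mice, against 62.5, 91.4, 78.0, 126 and 109.9 TPM in intact female cocaine mice. Every ovariectomized mouse lay below every intact mouse, by a narrow gap. The log2 difference was -1.07 ± 0.26 (SE; limma, unadjusted p = 0.000154). Ly6a, of the same family, had 34.9, 23.8, 25.0, 17.4 and 31.9 TPM in ovariectomized placebo cocaine mice and 28.0, 61.6, 49.5, 83.2 and 67.1 TPM in intact female cocaine mice (-1.06 ± 0.28). Here the groups overlapped through intact animal 70, the lowest of its group. Reads shared between near-identical Ly6 genes could be split between them by the authors' counting, so the Ly6 values are uncertain as single genes.

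Genes that define endothelium by function pointed the same way. Tek, the angiopoietin receptor, had 2.90, 1.40, 2.84, 2.13 and 3.77 TPM in ovariectomized placebo cocaine mice and 2.49, 6.79, 4.92, 11.5 and 7.41 TPM in intact female cocaine mice (-1.11 ± 0.41). Pecam1, an adhesion molecule of endothelial junctions, had 6.61, 3.06, 4.81, 2.44 and 7.40 TPM in ovariectomized placebo cocaine mice and 7.37, 11.9, 8.64, 16.5 and 12.3 TPM in intact female cocaine mice (-1.19 ± 0.46). In both genes, animal 70 was the only intact mouse within the ovariectomized range. Log2 differences were -1.05 ± 0.41 for Kdr and -1.13 ± 0.45 for Flt1, both receptors of vascular endothelial growth factor, and -0.74 ± 0.36 for the tight-junction gene Cldn5. Abcb1a, the drug efflux pump of the blood-brain barrier, differed by -1.11. Glucose transporter Slc2a1 (-0.40), Egfl7 (-0.19) and Itm2a (-0.17) had the smallest differences and lay near the median gene. Nostrin, a regulator of endothelial nitric oxide synthase, was not on the list but was among the 6 lower genes of smallest p, at 0.773, 2.04, 2.28, 1.16 and 2.16 TPM in ovariectomized placebo cocaine mice and 1.45, 4.99, 5.12, 9.52 and 6.29 TPM in intact female cocaine mice (-1.34 ± 0.34).

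The same list was low in every group of ovariectomized mice. Its score, the mean log2(TPM + 0.5) of the 14 genes after shifting all libraries to a common median, was 3.75 ± 0.410 in ovariectomized placebo cocaine, 3.90 ± 0.452 in ovariectomized placebo saline, 3.82 ± 0.267 in ovariectomized estradiol cocaine and 3.59 ± 0.246 in ovariectomized estradiol saline mice. It was 4.27 ± 0.376 in intact female cocaine, 4.41 ± 0.171 in intact female saline, 4.34 ± 0.157 in intact male cocaine and 4.48 ± 0.293 in intact male saline mice (SD, n = 5 each). The means of estradiol-treated mice lay near those of placebo mice, and the means of the groups labelled intact male near those of intact females. Surgery and animal numbers divide these groups alike, so they cannot be told apart here. Single libraries overlapped: ovariectomized placebo cocaine mice reached from 3.20 to 4.24 and intact female cocaine mice from 3.69 to 4.69. Ly6c1 itself averaged 44.2 TPM in ovariectomized placebo cocaine, 53.5 TPM in ovariectomized placebo saline, 36.3 TPM in ovariectomized estradiol cocaine and 49.0 TPM in ovariectomized estradiol saline mice. It averaged 93.7 TPM in intact female cocaine, 94.9 TPM in intact female saline, 90.7 TPM in intact male cocaine and 88.9 TPM in intact male saline mice. The male label is in doubt within the intact male cocaine group. Scored alike, Y-linked genes fell to -0.874 in its lowest library, against 4.06 to 4.50 in intact male saline mice. X-inactivation escape genes reached 5.10 in its highest library. Their range was 3.61 to 4.05 in intact male saline and 4.94 to 5.35 in intact female cocaine mice. The cause was not tested, and the means of this group are given as labelled.

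**Figure D2:**
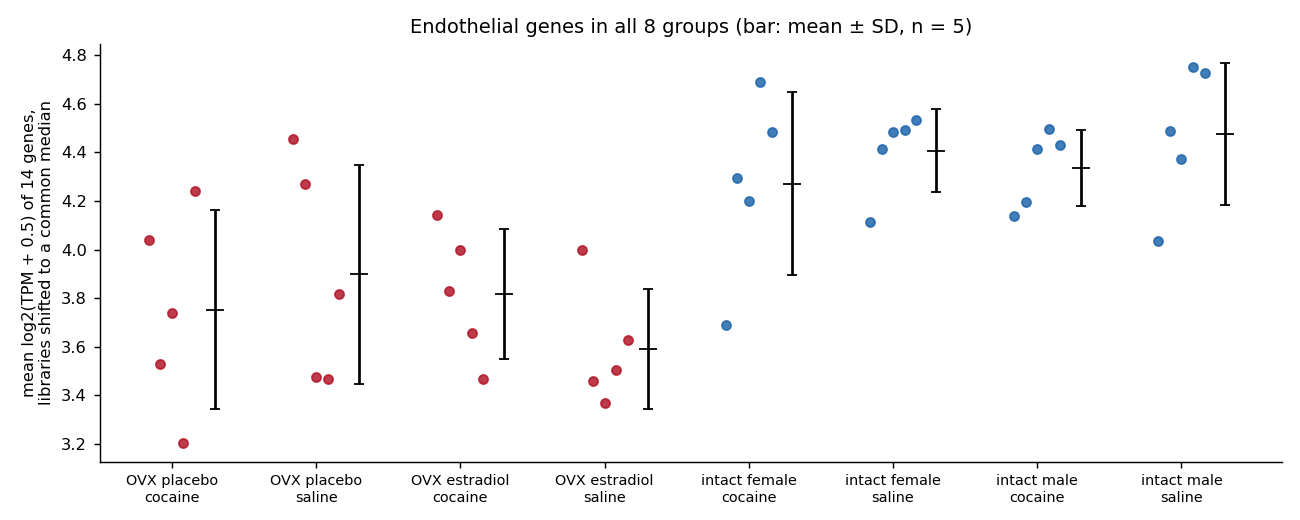
Mean log2(TPM + 0.5) of 14 endothelial genes in each library, after shifting all libraries to a common median, for the 4 ovariectomized groups on the left and the 4 intact groups on the right; bars show mean ± SD (n = 5). The ovariectomized means lie between 3.59 and 3.90 and the intact means between 4.27 and 4.48, with overlap of single libraries.

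Of 16 tested genes of vessel wall and meninges, 10 lay above the median gene. The relative median of 0.41 was 0.03 without ovariectomized animal 139 and 0.20 without intact animal 70. Of the 16, 1 was called lower, against 9.37% of all genes. The 2 members of smallest p were markers of pericytes, the cells that wrap capillaries. Rgs5, a signalling regulator of pericytes, had 28.8, 24.6, 26.4, 28.9 and 34.6 TPM in ovariectomized placebo cocaine mice and 26.2, 54.4, 64.8, 96.8 and 62.8 TPM in intact female cocaine mice (-0.97 ± 0.46). Intact animal 70 again lay with the ovariectomized mice. Abcc9, a potassium channel subunit of pericytes, differed by -0.82 ± 0.35.

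Cytosolic ribosomal protein genes were higher in the ovariectomized mice as a block. These genes encode the protein part of the ribosome. Of 78 tested genes, 78 lay above the median gene, the relative median was 0.65, and 23 were called higher (38 on centred values), against 0.632% and 1.43% of all genes. At 46 of the 78 the groups did not overlap on centred values (50 without animal 139), against 3.69% of all genes. Rps21 had 4277, 4612, 4537, 3117 and 2860 TPM in ovariectomized placebo cocaine mice and 2618, 2167, 2514, 1912 and 2170 TPM in intact female cocaine mice. Every ovariectomized mouse was above every intact mouse (0.75 ± 0.37 log2). Rpl38 had 3666, 3544, 3842, 3020 and 2389 TPM in ovariectomized placebo cocaine mice and 2680, 2070, 2009, 1915 and 1745 TPM in intact female cocaine mice (0.65 ± 0.34), and Rps27a, a ribosomal protein made as a fusion with ubiquitin, differed by 0.63 ± 0.27. For these 2 genes the groups overlapped on TPM and were apart after centring. Ribosomal protein genes have many processed pseudogenes, so single values depend on how the authors' counting placed shared reads.

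The start-site letters printed above were common in this family. CTTTC on the gene's strand was present in 16 of 58 ribosomal protein genes with a promoter entry (27.6%) and in 487 of all 11110 tested genes with one (4.38%). On the other strand the shares were 2 of 58 (3.45%) and 402 of 11110 (3.62%). Among tested genes outside the family, those with the letters on their own strand had a relative median of -0.02, at the level of the median gene.

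Genes of energy supply and protein breakdown stood with the ribosomal proteins. Of 70 nuclear genes of oxidative phosphorylation, the mitochondrial machinery that makes ATP, 69 lay above the median gene, with a relative median of 0.48. Of the 70, 10 were called higher, against 0.632% of all genes, and 17 on centred values, against 1.43%. At 32 the groups did not overlap on centred values (36 without animal 139), against 3.69% of all genes. Cox6c, a subunit of cytochrome c oxidase, had 3025, 3582, 3326, 2817 and 2343 TPM in ovariectomized placebo cocaine mice and 2032, 1998, 1958, 1714 and 1632 TPM in intact female cocaine mice (0.68 ± 0.34), with the groups apart. Cox7c of the same enzyme differed by 0.59 ± 0.32 and Ndufb9 of complex I by 0.48 ± 0.27. Among 25 proteasome subunits the relative median was 0.33, with 23 above the median gene. Of the 25, 1 was called higher, Psma7 (0.44 ± 0.24), against 0.632% of all genes.

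The difference ran with transcript length over all genes. A gene's length was the median over all its GENCODE transcripts, short isoforms included, so it need not be that of its main transcript. In 5 bins of increasing length, of 3006 to 3015 genes each, the median log2 difference was -0.12, -0.15, -0.20, -0.29 and -0.41. Genes called higher numbered 69, 18, 7, 1 and 0 in these bins, and genes called lower 182, 216, 214, 290 and 510. Across 15050 genes, which are not independent replicates, Spearman's rho of the difference with length was -0.32. Per library, the shortest bin exceeded the longest by 0.907 ± 0.124 on the log2 scale in ovariectomized placebo cocaine mice and by 0.598 ± 0.0860 in intact female cocaine mice, with no overlap (SD, n = 5; exact permutation p = 0.00794, the smallest possible, adjusted 0.0278). Ribosomal protein transcripts, of median length 630.2 bases, belong to the shortest bin, and their median difference was 0.40. Endothelial transcripts, of median length 1672 bases, belong to the middle bin, and theirs was -1.004. The channels described below have a median length of 3150 bases, in the longest bin. The part of this gradient in the differences of the gene groups described here was not tested.

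**Figure D3:**
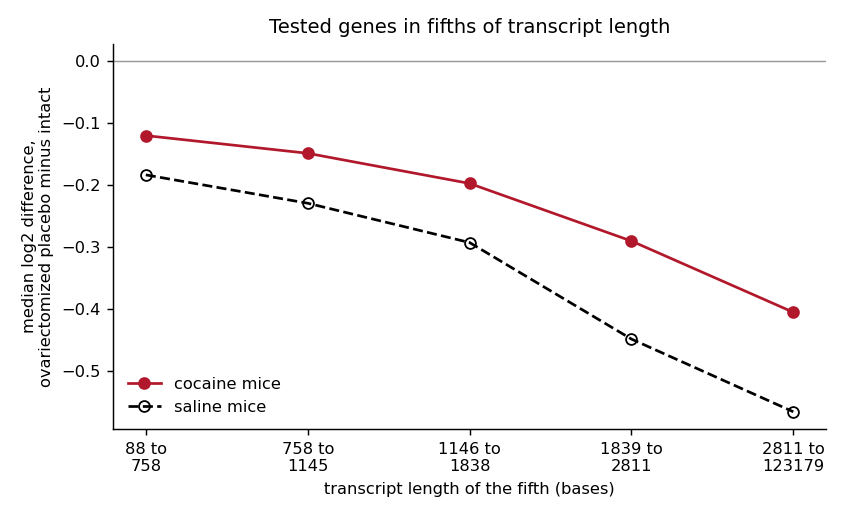
Median log2 difference (ovariectomized placebo minus intact female) of tested genes in 5 bins of transcript length in bases, filled points for cocaine and open points for saline mice. The median is -0.12 in the shortest and -0.41 in the longest bin in cocaine mice, and -0.18 and -0.57 in saline mice.

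Single genes of smallest p among the higher ones included genes of interferon, calcium and nucleotide biology and an uncharacterized transcript. Ifi27l2a, an interferon-induced gene (chr12:103442167-103443680, minus strand, mm10), had 14.8, 23.7, 13.2, 15 and 14.6 TPM in ovariectomized placebo cocaine mice and 0, 3.54, 5.03, 3.35 and 9.92 TPM in intact female cocaine mice (2.27 ± 0.62 log2, unadjusted p = 0.000701). The groups did not overlap. Ifi27l2a was not among the 16 tested genes of the interferon list, which had a relative median of 0.15 with 0 called. S100a6, a calcium-binding protein (chr3:90612882-90624181, plus strand), had 67.6, 64.9, 65.3, 64.1 and 84.8 TPM in ovariectomized placebo cocaine mice and 29.6, 46.6, 56.2, 22.8 and 29.8 TPM in intact female cocaine mice (0.97 ± 0.30). It was called with and without centring (adjusted p 0.0361 and 0.0393 in the limma fits of 10 libraries). Nme4, a mitochondrial nucleoside diphosphate kinase, had 9.81, 6.79, 4.49, 5.45 and 7.22 TPM in ovariectomized placebo cocaine mice and 1.42, 3.56, 3.68, 3.64 and 2.53 TPM in intact female cocaine mice (1.08 ± 0.33). The transcript 1700101I11Rik had 6.02, 3.45, 6.07, 6.67 and 2.92 TPM in ovariectomized placebo cocaine mice and 3.02, 1.73, 2.93, 0.545 and 0.566 TPM in intact female cocaine mice (1.42 ± 0.34), the groups overlapping by a narrow margin on TPM.

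Small RNA genes completed the higher ones. Rnu12, the U12 RNA of the minor spliceosome, had 29.2, 15.1, 91.5, 61.2 and 334 TPM in ovariectomized placebo cocaine mice and 0, 36.4, 16.6, 0 and 0 TPM in intact female cocaine mice (4.68 ± 1.40). Snora74a had 11.5, 9.92, 21.2, 4.45 and 37.6 TPM in ovariectomized placebo cocaine mice and 0, 6.05, 2.02, 0 and 0 TPM in intact female cocaine mice (3.58 ± 1.13). Snora64 was listed at 0 in all 5 intact female cocaine libraries and at 0, 69.9, 249, 133 and 129.8 TPM in the ovariectomized ones. Over 32 tested small nucleolar RNAs, which guide chemical modification of ribosomal RNA, the relative median was 1.63. Of the 32, 2 were called higher, against 0.632% of all genes, and 0 on centred values. The relative median was 0.90 without ovariectomized animal 139, 1.05 without animal 135 and 0.25 over the 48 tested without the filter on low values. The sum over all small nucleolar RNAs in the table was 3770 ± 4618 TPM in ovariectomized placebo cocaine and 1761 ± 2053 TPM in intact female cocaine libraries (SD, n = 5; exact permutation p = 0.468), led by ovariectomized animal 139 and intact animal 71. These genes lie within introns of host genes, whose reads they may share, and TPM of such short transcripts rests on few fragments.

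The genes of smallest p among the lower ones, besides the vessel genes, had few common roles. Slc38a6, an amino acid transporter (chr12:73286779-73354049, plus strand, mm10), had 7.48, 3.13, 3.21, 5.47 and 4.28 TPM in ovariectomized placebo cocaine mice and 9.43, 9.48, 10.4, 12.2 and 13.8 TPM in intact female cocaine mice (-1.20 ± 0.34). The groups were apart, and the gene was among the 13 called lower on centred values (limma fit of 10 libraries, adjusted p = 0.0433). The unplaced transcript A930013F10Rik was another of the 13, at 14.4, 3.24, 9.19, 8.20 and 5.20 TPM in ovariectomized placebo cocaine mice and 16.5, 21.3, 18.4, 23.7 and 24.9 TPM in intact female cocaine mice (-1.47 ± 0.42). Syne4, a nuclear envelope protein that binds kinesin, had 5.43, 1.71, 4.42, 1.02 and 1.05 TPM in ovariectomized placebo cocaine mice and 5.19, 5.95, 5.44, 6.15 and 10.3 TPM in intact female cocaine mice (-1.34 ± 0.36). One ovariectomized mouse, animal 125, lay within the intact range.

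**Figure D4:**
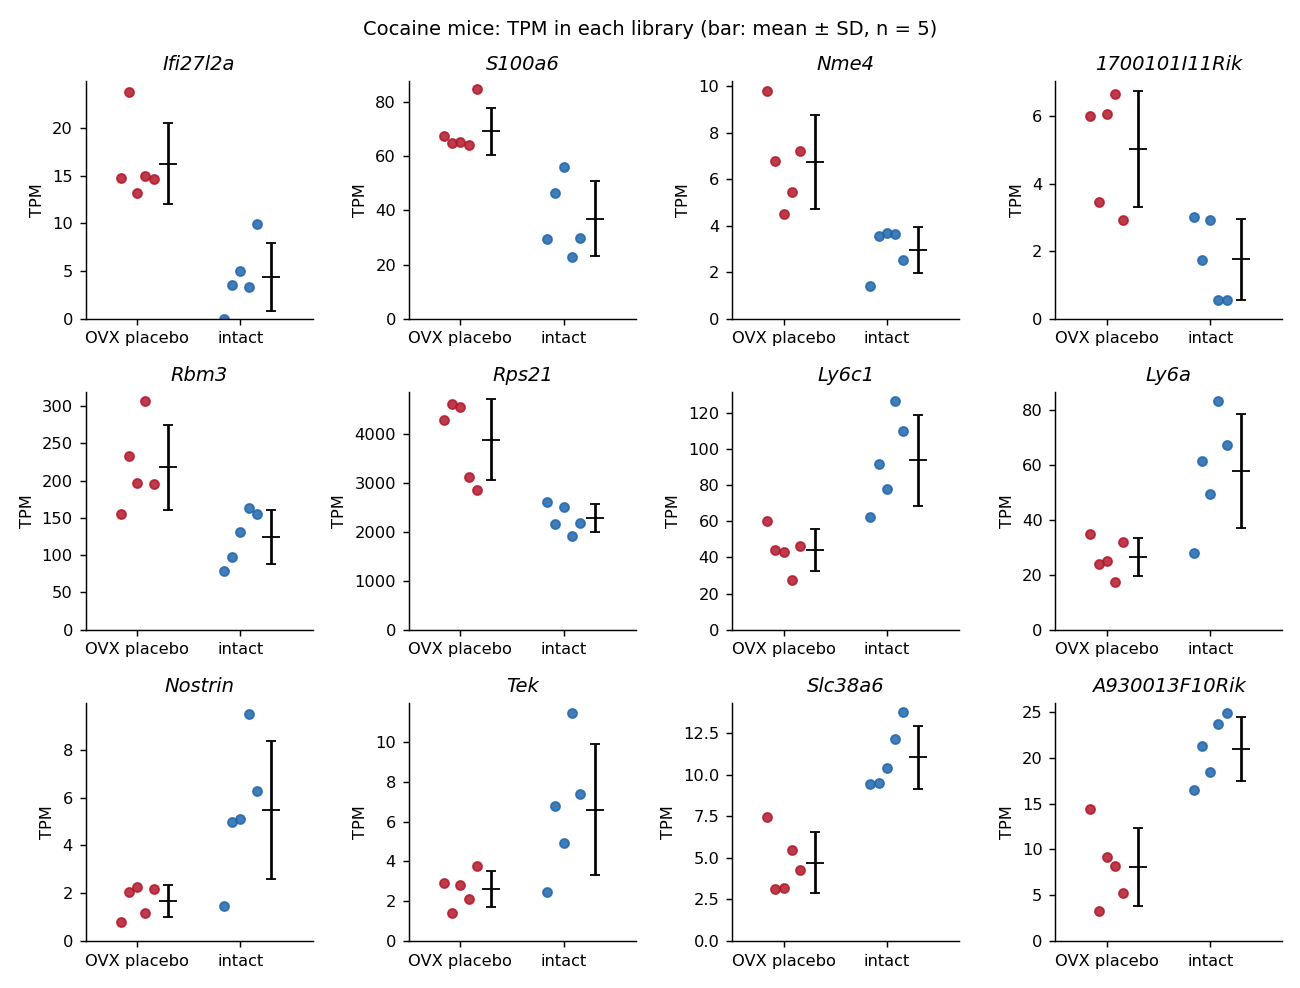
TPM in each library for 12 genes, ovariectomized placebo (OVX placebo) cocaine mice on the left and intact female cocaine mice on the right of each panel, with bars for mean ± SD (n = 5). Ifi27l2a, S100a6, Nme4 and Rps21 show ovariectomized mice above all intact mice, and Ly6c1, Slc38a6 and A930013F10Rik show them below.

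Receptors for ovarian steroids differed little. Esr1, estrogen receptor alpha (chr10:4611593-5005614, plus strand, mm10), had 3.91, 1.73, 1.93, 2.07 and 2.12 TPM in ovariectomized placebo cocaine mice and 2.91, 1.33, 2.87, 2.76 and 4.01 TPM in intact female cocaine mice, with wide overlap (-0.19 ± 0.40). Esr2, estrogen receptor beta, stayed under 1 TPM in all 10 libraries and was too low to be tested. The membrane estrogen receptor Gpr30 had 1.75, 1.62, 2.76, 1.39 and 3.01 TPM in ovariectomized placebo cocaine mice and 2.92, 3.28, 2.82, 2.99 and 3.33 TPM in intact female cocaine mice (-0.50 ± 0.33). Progesterone receptor Pgr, an estrogen-induced gene in many tissues, lay at 8.90 to 14 TPM in ovariectomized placebo cocaine and at 11.4 to 14.1 TPM in intact female cocaine mice (-0.26 ± 0.27). The differences of Esr1 and Pgr turned positive when libraries were centred. Beyond the receptors, Star, which carries cholesterol into mitochondria for steroid synthesis, differed by -0.59 ± 0.33, and Hsd11b1, which regenerates glucocorticoid, by 0.62 ± 0.35. Over 16 tested genes of steroid reception and synthesis the relative median was 0.05, with 1 called lower, Star, against 9.37% of all genes.

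Genes reported to respond to estrogen lay slightly below the median gene. Of 19 tested, 6 were above it (relative median -0.10) and 0 were called without centring. Igf1r, the receptor of insulin-like growth factor, was lowest in p, at 4.60 to 13.4 TPM in ovariectomized placebo cocaine and 9.79 to 19.4 TPM in intact female cocaine mice (-0.76 ± 0.36). Igfbp4, which binds that growth factor, was called on centred values, at 64.3 to 94.3 TPM in ovariectomized placebo cocaine and 48.8 to 70.9 TPM in intact female cocaine mice (0.35 ± 0.26). Oxt, which encodes oxytocin and marks hypothalamic neurons, ranged from 1.46 to 238 TPM in ovariectomized placebo cocaine and from 1.79 to 176 TPM in intact female cocaine mice, with no separation. Pde10a, whose palindrome is printed above, lay at 128 to 209 TPM in ovariectomized placebo cocaine and 174 to 262 TPM in intact female cocaine mice (-0.46 ± 0.37).

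Coregulators through which estrogen receptors act on chromatin were lower. Of 11 tested genes 1 lay above the median gene, the relative median was -0.36, and 5 were called lower (Ep300, Med1, Ncoa1, Ncoa2 and Ncoa3), against 9.37% of all genes; 0 were called on centred values, and without ovariectomized animal 127 the relative median was -0.23. Ncoa2, a steroid receptor coactivator, had 26.8, 17.2, 21.9, 26.4 and 21.0 TPM in ovariectomized placebo cocaine mice and 28.6, 37.2, 35.9, 37.8 and 38.8 TPM in intact female cocaine mice (-0.65 ± 0.35), with the groups apart. Ep300, a histone acetyltransferase, had 21.8, 8.93, 15, 15.2 and 16.4 TPM in ovariectomized placebo cocaine mice and 20.1, 25.6, 26.5, 30.8 and 32.7 TPM in intact female cocaine mice (-0.82 ± 0.34). Ovariectomized animal 125 was the one mouse inside the intact range. Its paralog Crebbp differed by -0.74 ± 0.37 and was not called.

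Chromatin modifiers in general had a like relative median, -0.38 over 25 tested genes, with 10 called lower, against 9.37% of all genes, and 0 on centred values. Without ovariectomized animal 127 the relative median was -0.24. Mll1, a histone H3 methyltransferase, had 43.5, 9.42, 24.5, 17.0 and 18.7 TPM in ovariectomized placebo cocaine mice and 30.3, 41.6, 41.9, 41.9 and 46.4 TPM in intact female cocaine mice (-0.98 ± 0.39). Dnmt3a, a DNA methyltransferase, differed by -0.85 ± 0.38. Their median transcript length, 1612 bases over the 24 genes with one, lies in the middle length bin, whose median difference was -0.20, against -0.62 for these genes. That length is a median over all transcripts of a gene, and the part of length in this difference was not tested.

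Genes of neuronal excitability were also on the lower side. Among 31 tested potassium, sodium and calcium channels, 25 lay below the median gene, the relative median was -0.38 (-0.23 without ovariectomized animal 127), and 11 were called lower, against 9.37% of all genes. On centred values 0 were called. Kcnc1, a fast potassium channel, had 85.7, 33.1, 37.5, 32.3 and 36.0 TPM in ovariectomized placebo cocaine mice and 81.1, 77.3, 65.3, 74.5 and 90.6 TPM in intact female cocaine mice (-0.89 ± 0.36). Ovariectomized animal 125 stood within the intact range, and the other 4 well below it. Sodium channel Scn1a had 17.1 to 36.0 TPM in ovariectomized placebo cocaine mice and 36.9 to 72.6 TPM in intact female cocaine mice (-0.85 ± 0.38). Kcna2 and Scn8a, channels of axons, differed by -0.81 ± 0.37 and -0.85 ± 0.39.

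Synaptic genes had fewer calls. Of 33 glutamate receptor and scaffold genes 4 were called lower (relative median -0.19), of 20 genes of vesicle release 6 (-0.25), and of 10 acetylcholine receptors 2 (-0.42), against 9.37% of all genes. The share for the glutamate list is near that of all genes. On centred values 0 were called in these 3 lists. Grin3a, a subunit of the NMDA glutamate receptor, lay at 8.51 to 18.1 TPM in ovariectomized placebo cocaine and 17.6 to 24.4 TPM in intact female cocaine mice (-0.79 ± 0.38). Only ovariectomized animal 125 exceeded the lowest intact mouse. Unc13a, which primes vesicles for release, differed by -0.83 ± 0.37, and the nicotinic receptor subunit Chrnb2 lay at 14.8 to 24.7 TPM in ovariectomized placebo cocaine and 27.8 to 32.4 TPM in intact female cocaine mice (-0.61 ± 0.35).

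Opioid and cannabinoid genes, part of the reward circuitry of the accumbens, had 4 of 10 called lower (Oprm1, Oprd1, Napepld and Dagla; relative median -0.21), against 9.37% of all genes, and 0 on centred values. Without ovariectomized animal 133 the relative median was -0.12. Oprm1, the mu opioid receptor, had 3.63, 2.12, 3.09, 2.15 and 1.88 TPM in ovariectomized placebo cocaine mice and 6.75, 3.44, 4.84, 4.99 and 5.81 TPM in intact female cocaine mice (-0.89 ± 0.37). The groups overlapped only through animal 125 and intact animal 71. Oprd1, the delta opioid receptor, lay at 5.25 to 8.57 TPM in ovariectomized placebo cocaine and 9.59 to 11.2 TPM in intact female cocaine mice (-0.60 ± 0.40). Dagla and Napepld, which make endocannabinoids and related lipids, differed by -0.63 ± 0.37 and -0.77 ± 0.35.

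Dopamine receptors and markers of projection neurons kept close to the median gene. Drd1a, the D1 receptor, had 108, 137, 159.9, 118 and 89.5 TPM in ovariectomized placebo cocaine mice and 126, 136, 112, 161 and 156 TPM in intact female cocaine mice (-0.19 ± 0.30). Drd2, the D2 receptor, had 111, 105, 132, 80.0 and 84.9 TPM in ovariectomized placebo cocaine mice and 120.2, 121, 109.7, 111 and 144 TPM in intact female cocaine mice (-0.26 ± 0.37). Both overlapped widely, and both differences turned positive with centring. Drd3 lay at 2.34 to 7.19 TPM in ovariectomized placebo cocaine and 4.74 to 9.42 TPM in intact female cocaine mice (-0.76 ± 0.52). Over 17 dopamine genes the relative median was 0.05 and over 24 genes of projection neurons 0.13. In both lists 1 gene was called lower, the G protein subunit gene Gnal (-0.50 ± 0.37), against 9.37% of all genes.

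Activity-dependent genes, which neurons switch on after stimulation and which cocaine is known to induce, gave 0 calls of 24 with a relative median of 0.06. Fosb, whose stable product builds up after repeated cocaine, had 5.57, 7.35, 5.65, 5.49 and 6.86 TPM in ovariectomized placebo cocaine mice and 5.56, 9.95, 17.2, 5.91 and 11.7 TPM in intact female cocaine mice (-0.55 ± 0.45). Intact mice spread more widely, from the ovariectomized level upward. Egr1 and Npas4 differed by -0.42 ± 0.36 and -0.69 ± 0.50. Bdnf, the brain-derived neurotrophic factor, had 1.55, 0.676, 0.640, 7.51 and 6.19 TPM in ovariectomized placebo cocaine mice and 1.5, 9.26, 10.1, 3.13 and 1.85 TPM in intact female cocaine mice (-0.72 ± 0.62). The cortical marker Tbr1 had 4.77, 1.88, 2.23, 32.8 and 33.5 TPM in the same ovariectomized and 7.46, 58.2, 36.8, 8.16 and 7.27 TPM in the same intact mice, high in ovariectomized animals 135 and 139 and intact animals 71 and 72, where Bdnf was also highest.

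Clock and temperature genes held some of the clearer single values. Nfil3, a repressor tied to the circadian clock, had 5.11, 7.65, 5.36, 6.40 and 6.19 TPM in ovariectomized placebo cocaine mice and 11.1, 12.4, 11.8, 7.42 and 9.72 TPM in intact female cocaine mice (-0.72 ± 0.24). Of 19 clock genes 5 were called lower (Nfil3, Per2, Clock, Arntl and Bhlhe40), against 9.37% of all genes, and 0 were called on centred values. The relative median was -0.09, and Per2 differed by -0.71 ± 0.36. Rbm3, an RNA-binding protein induced by cold, had 155, 234, 197, 307 and 196 TPM in ovariectomized placebo cocaine mice and 78.6, 97.7, 131, 163 and 155 TPM in intact female cocaine mice (0.81 ± 0.28), and was called with and without centring. Its relative Cirbp differed by 0.33 ± 0.23. On centred values the groups were apart at both genes, higher in the ovariectomized mice, as at 3.69% of all genes. The time of day at which tissue was taken is not given in the sources used here.

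Glia and immune genes were mostly somewhat above the median gene. Of 16 microglial genes 14 lay above it (relative median 0.34, 0 called), of 16 oligodendrocyte genes 14 (0.24, 0 called) and of 16 astrocyte genes 12 (0.12, 1 called lower, against 9.37% of all genes). Oligodendrocyte precursor genes lay at the median gene, with 6 of 12 above it (relative median -0.03). Of these 12, 2 were called lower, against 9.37% of all genes, and 0 on centred values. Opalin, a myelin membrane protein, had 118, 102, 86.4, 101 and 81.6 TPM in ovariectomized placebo cocaine mice and 67.8, 68.8, 72.3, 72.2 and 85.3 TPM in intact female cocaine mice (0.40 ± 0.25). Only intact animal 80 reached the ovariectomized range. Among 11 genes of antigen presentation 10 lay above the median gene (0.56, 0 called); the class II gene H2-Aa had 4.76, 12.6, 4.99, 0.805 and 17.5 TPM in ovariectomized placebo cocaine mice and 0, 2.55, 1.72, 2.87 and 2.59 TPM in intact female cocaine mice (1.59 ± 0.82). Its partner H2-Ab1 differed by 1.18 ± 0.59.

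Markers of tissue beside the accumbens varied between punches. Of 9 ependymal genes, from the ciliated lining of the ventricle, 9 lay above the median gene (relative median 0.80, 0 called); Ccdc153 had 10.9, 12.7, 15.2, 13.2 and 3.38 TPM in ovariectomized placebo cocaine mice and 0.707, 2.76, 13.3, 0.345 and 3.02 TPM in intact female cocaine mice. The list summed to 173 to 396 TPM in ovariectomized placebo cocaine and 166 to 281 TPM in intact female cocaine libraries. Genes of the hypothalamus and thalamus, 12 tested, had a relative median of -0.23 that was 0.02 without ovariectomized animal 139. Of the 12, 1 was called higher and 0 lower, against 0.632% and 9.37% of all genes. Slc17a6, a glutamate transporter of those regions, had 14.5, 11.3, 4.33, 7.88 and 4.38 TPM in ovariectomized placebo cocaine mice and 27.7, 14.1, 8.61, 59.0 and 18.6 TPM in intact female cocaine mice (-1.39 ± 0.54). That list summed to 43.4 to 321 TPM in ovariectomized placebo cocaine and 62.9 to 255 TPM in intact female cocaine libraries. Otp, a hypothalamic transcription factor, was at 0 in 4 of 5 ovariectomized and 1 of 5 intact mice. Pomc, made by hypothalamic and pituitary cells, was called higher on both scales, at 3.50 to 8.80 TPM in ovariectomized placebo cocaine and 1.69 to 5.34 TPM in intact female cocaine mice (1.10 ± 0.58). The part of punch position in the values of other genes was not tested. Xist, the RNA of the inactive X chromosome, was present in all 10 females, at 63.3 to 186 TPM in ovariectomized placebo cocaine and 152 to 270.5 TPM in intact female cocaine mice.

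**Figure D5:**
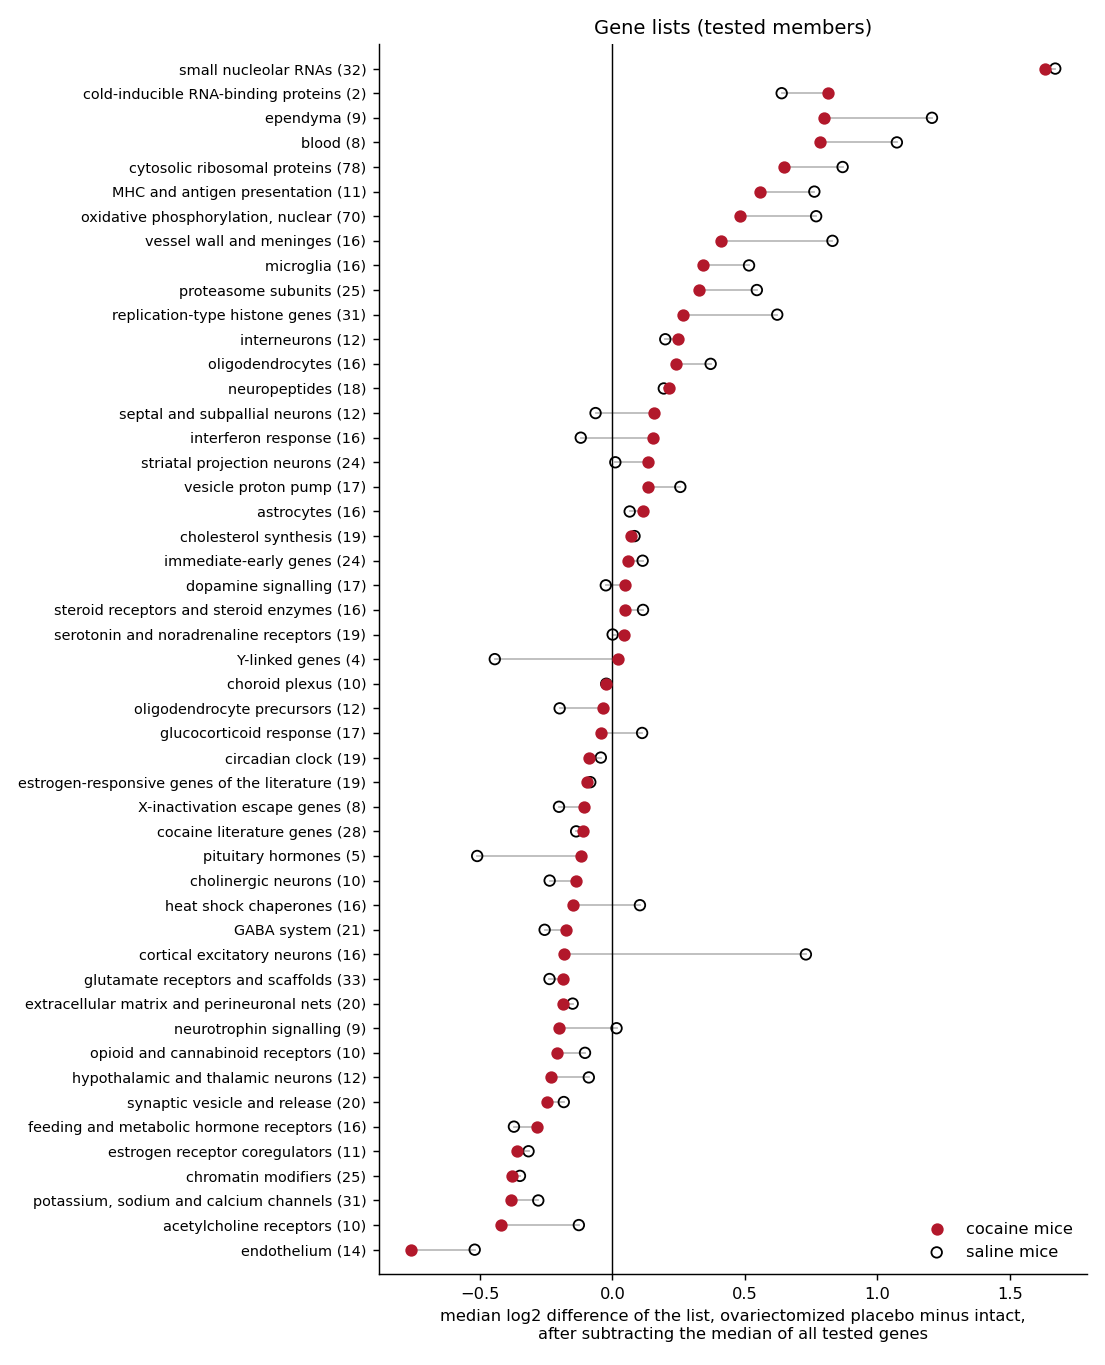
Relative median log2 difference (ovariectomized placebo minus intact female) of each gene list, with the number of tested members in brackets, filled for cocaine and open for saline mice. Small nucleolar RNAs (1.63) and ribosomal proteins (0.65) lie on the higher side and endothelium (-0.76) at the lower end in cocaine mice.

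Saline mice, which share no library with the comparison above, gave the same contrast of cohorts without cocaine. Ovariectomized placebo saline minus intact female saline also gave 0 of 15196 calls (0%; limma on all 40 libraries, 2927 genes at an unadjusted p under 0.05), with a median gene of -0.37. Without placebo saline animal 137, of ribosomal protein share 19.2%, the median gene was -0.19. Genes at an unadjusted p under 0.05 (limma) then numbered 837. The correlations, list medians and gene values below include this animal. Across genes the saline and cocaine differences had a Pearson correlation of 0.73 and a Spearman correlation of 0.78, as a description over genes of one table. Endothelium had a relative median of -0.52 in saline mice, ribosomal proteins 0.87 and oxidative phosphorylation 0.77. Ly6c1 differed by -0.86 ± 0.26, Slc38a6 by -1.22 ± 0.34, S100a6 by 0.85 ± 0.30 and Nme4 by 0.90 ± 0.33 in saline mice. Cortical marker genes had relative medians of -0.18 in cocaine and 0.73 in saline mice, a difference that was not tested as a list.

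The test of whether the difference between ovariectomized placebo and intact females itself differed between cocaine and saline mice gave 0 of 15196 calls (0%; limma, 83 genes at an unadjusted p under 0.05). The 5 genes of smallest p were low transcripts. 1700028J19Rik differed by 0.19 ± 0.32 in cocaine mice and by -1.42 ± 0.32 in saline mice (unadjusted p of the difference 0.00115), and 1700101I11Rik by 1.42 ± 0.34 in cocaine and -0.12 ± 0.34 in saline mice (0.00307). Gm2721 differed by 0.61 ± 0.35 in cocaine and -0.99 ± 0.35 in saline mice, AY074887 by -0.30 ± 0.39 in cocaine and 1.43 ± 0.39 in saline mice, and the claudin gene Cldn26 by -0.54 ± 0.39 in cocaine and 1.11 ± 0.39 in saline mice. For Esr1 the cocaine difference of -0.19 stood beside a saline difference of -1.47 ± 0.40 (unadjusted p of the difference 0.0309). None of these passed adjustment.

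Estradiol-treated mice of the same cohort were set beside the placebo mice. Ovariectomized estradiol cocaine minus intact female cocaine gave 8434 calls (55.5%; 594 higher and 7840 lower), a count that was 0 without estradiol animal 126 and 14 without animal 134. This comparison shares the intact female cocaine libraries with the placebo one, so the values are given side by side without a test of likeness. The median gene differed from intact mice by -0.74 in estradiol mice and by -0.24 in placebo mice, so the values have unlike baselines. In estradiol mice the log2 differences from intact mice were -1.31 for Ly6c1, -1.70 for Tek, -1.64 for Slc38a6, 1.40 for S100a6 and 0.09 for Rbm3. In placebo mice they were -1.07 for Ly6c1, -1.11 for Tek, -1.20 for Slc38a6, 0.97 for S100a6 and 0.81 for Rbm3. Estradiol against placebo in cocaine mice gave 0 of 15196 calls (0%; limma, 2385 genes at an unadjusted p under 0.05), with -0.72 ± 0.28 for Rbm3, -0.24 ± 0.26 for Ly6c1 and -1.02 ± 0.40 for Esr1. The median gene of that comparison was -0.49.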

How the data were processed

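RNA of nucleus accumbens punches was made into AmpliSeq libraries sequenced on 1 lane, per the labels' protocols. The authors deposited 1 table, named for FPKM, whose 40 columns each sum to 1000000, so the deposited values are TPM. Genome build mm10, DESeq2, limma, Cuffdiff 2.2.0 with Cufflinks 2.2.0, and TopHat2 2.0.9 with Bowtie2 2.1.0.0 are named, per the submitters' processing notes, without saying which made the table. Depth is unknown, since TPM keeps no counts, so no counting intervals are given.

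Groups came from the sample titles. The library labelled male cocaine 69 carries another code in its description and was kept under its title. Of 23349 entries, 27 carry dates instead of gene symbols and were left out. The 15196 genes that reached 1 TPM in 5 or more of 40 libraries were tested as log2(TPM + 0.5) with limma 3.58.1 in R 4.3.3 (trend and robust), in 1 model of 8 group means with 32 residual degrees of freedom and Benjamini-Hochberg adjustment at 0.05. Differences are log2 on the TPM + 0.5 scale, which understates changes of low genes. Library measures were compared by two-sided exact permutation over 252 splits.

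The comparison, its members and 50 gene lists were chosen with earlier results of these data known, so no list was given a test. Of 1022 list symbols 10 were found under another name (Drd1 as Drd1a, Gper1 as Gpr30) and 16 were not matched. Genes named are the 6 of smallest p in each direction with a mean of at least 5 TPM in either group, the 4 of smallest p in each list, a set of receptors and markers (Esr1, Esr2, Gpr30, Pgr, Drd1a, Drd2, Fosb, Bdnf and Xist) and the 5 of smallest p for the difference between cocaine and saline contrasts. Further names on the endothelium list, Crebbp and members of short counts were chosen after their values were seen. Coordinates are mm10, from GENCODE; start-site sequences are from RefSeq on GRCm38.p6, the same build. Alternatives changed the pseudocount, filter, scaling, model libraries and weights, and left out each mouse of a comparison in turn.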

Additional observations from a re-analysis of the deposited data

Results flagged for a closer look

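In 18 of 208 sets of 5 libraries looked at, 1 library lay far from the other 4 of its group (gap over range above 0.71, for genes on the log2(TPM + 0.5) scale, which chance alone gives in about 1 set in 20). In ovariectomized placebo cocaine mice, animal 125 stood out for Esr1 (3.91 TPM, the others 1.73 to 2.12), for Kcnc1 (85.7 TPM, the others 32.3 to 37.5) and for Snora64 (0 TPM, the others 69.9 to 249). Animal 127 stood out for Ifi27l2a (23.7 TPM, the others 13.2 to 15) and for Otp (0.370 TPM, the others 0). Animal 139 stood out for S100a6 (84.8 TPM, the others 64.1 to 67.6), Ccdc153 (3.38 TPM, the others 10.9 to 15.2), Rn45s (15.8% of TPM, the others 0.782% to 2.56%), Lars2 (2.13% of TPM, the others 0.115% to 0.284%) and the sum of small nucleolar RNAs (12009 TPM, the others 1206 to 2027).

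In intact female cocaine mice, animal 70 was low for Ncoa2 (28.6 TPM, the others 35.9 to 38.8), Mll1 (30.3 TPM, the others 41.6 to 46.4), Scn8a (39.1 TPM, the others 58.5 to 68.3), Pclo (28.0 TPM, the others 41.0 to 47.2) and H2-Aa (0 TPM, the others 1.72 to 2.87). Animal 80 was high for Syne4 (10.3 TPM, the others 5.19 to 6.15) and Opalin (85.3 TPM, the others 67.8 to 72.3). Animal 71 was high for small nucleolar RNAs (5356 TPM, the others 367 to 1316).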

How the results depend on the processing

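For ovariectomized placebo cocaine against intact female cocaine mice, the model of all 40 libraries called 0 genes, also when each of the 10 mice compared was left out in turn and when Rn45s and Lars2 were removed. Array weights gave 6431 calls (912 higher, 5519 lower). The 10 libraries alone gave 1520 calls (96 higher, 1424 lower), centred on their medians 230 (217 higher, 13 lower), and without Rn45s and Lars2 1015 (138 higher, 877 lower); these and the runs that left out 1 of the 10 were added after seeing the data, apart from the first. Leaving out 1 of the 10 gave 0 to 2839 calls: 2839 without ovariectomized animal 125, 2789 without 135, 2081 without intact animal 70, 1 without 79 and 0 without 127, 133, 139, 71, 72 or 80. Centred, the range was 0 to 802: 802 without 125, 579 without 135, 188 without 139, 367 without 70, 1 without 79 or 80, and 0 without 127, 133, 71 or 72. The cause was not tested. In saline mice the count was 1 without the filter and 6802 (803 higher, 5999 lower) with array weights.

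For estradiol against intact cocaine mice the count of 8434 became 3014 (2150 higher, 864 lower) with centring, 2891 (1346 higher, 1545 lower) with quantile scaling, 4631 (679 higher, 3952 lower) with array weights, 2 with only that contrast's libraries, and 0 with the ribosomal protein share as a covariate or without the 4 libraries of lowest correlation (estradiol cocaine animals 126 and 134, placebo saline animal 137 and male cocaine animal 67). Leaving out 1 mouse gave 0 (estradiol animal 126) to 10131 (animal 136), with 14 without animal 134. The ribosomal protein share differed by 2.96 percentage points (exact permutation p = 0.0159), by 2.40 to 3.61 without 1 mouse, and by 0.0163 (p = 0.0714) when genes over 500 TPM were left out.

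Over the 26 settings, the unaltered one included, relative medians stayed at -0.95 to -0.59 for endothelium, -0.54 to -0.23 for ion channels, -0.49 to -0.23 for estrogen receptor coregulators, -0.45 to -0.24 for chromatin modifiers and 0.12 to 0.56 for oxidative phosphorylation, and over 25 at 0.17 to 0.73 for ribosomal proteins. Those of immediate-early genes (-0.40 to 0.17), dopamine genes (-0.07 to 0.20) and cortical markers (-1.37 to 0.08) had no fixed sign. Small differences changed sign with scaling. Centring, with 40 or 10 libraries, gave log2 differences of 0.117 for Esr1, 0.0433 for Pgr, 0.116 for Drd1a, 0.0499 for Drd2 and 0.00766 for AY074887. Quantile scaling gave Esr1 0.0536 and Pgr 0.0518, the ribosomal covariate Esr1 0.0364, Drd1a 0.0521 and Drd2 0.0718, and array weights Drd1a 0.0930 and AY074887 0.0732. No paired analysis was possible because the groups share no animal numbers. Unknown depth limits the low genes most.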

Other observations

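Gene groups not described above mostly stayed near the median gene in ovariectomized placebo cocaine against intact female cocaine mice. Receptors for feeding and metabolic hormones had a relative median of -0.28 over 16 genes, and neurotrophin signalling -0.20 over 9, with Ntrk2, the receptor of Bdnf, and the sorting receptor Sort1 called lower in the model of 10 libraries, in which 9.37% of all genes were called lower. Genes of the GABA system had -0.17 over 21, with Gabra2 and Gabbr2, subunits of the ionotropic and the metabotropic receptor, called lower, a share near that of all genes. Extracellular matrix and perineuronal net genes had -0.19 over 20, with Tnr, Hapln4 and Lamc1 called lower; Tnr and Hapln4 belong to the nets around fast-spiking neurons. Heat shock chaperones had -0.15 over 16, with Hsph1 called lower. Cholesterol synthesis (0.07 over 19), receptors for serotonin and noradrenaline (0.04 over 19) and glucocorticoid-responsive genes (-0.04 over 17) lay at the median gene. On centred values 0 genes of these lists were called.

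Other groups lay above the median gene. Replication-type histone genes had a relative median of 0.27 over 31 genes, neuropeptides 0.21 over 18, interneuron markers 0.25 over 12 (0.10 to 0.27 when 1 mouse was left out), and the vesicle proton pump 0.13 over 17. Blood genes had 0.78 over 8 genes, of which 0 were called; they summed to 330.1 to 753 TPM in ovariectomized placebo cocaine and 321 to 564 TPM in intact female cocaine libraries. Choroid plexus genes, unlike these, lay at the median gene (-0.02 over 10, with 4 above it). Their transthyretin gene Ttr had 4.11 to 37.7 TPM in ovariectomized placebo cocaine and 1.21 to 24.1 TPM in intact female cocaine libraries.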
